A study of Mus musculus with 12 samples.

Results

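The 38 genes described here encode proteins of autophagy and of the lysosome. They were chosen by symbol from general knowledge of the pathway, with earlier results of these data known. All 38 were found among the 55487 genes of the deposited tables, each once and each annotated as protein-coding, and all 38 passed the filter on low counts. They comprise 6 genes of initiation and nucleation, 7 of conjugation and phagophore binding, 5 of the LC3 and GABARAP family, 5 cargo receptors, 2 transcription factors, 3 lysosomal membrane proteins, 7 hydrolases and 3 proton pump subunits. The first 4 of these groups are called the 23 autophagy genes below, and the last 3 the 13 lysosomal genes.

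RNA sequencing of poly(A) RNA was carried out on bulk liver of 12 male mice aged 16 to 18 months, 3 in each of 4 groups. The groups were fasted and fed Foxo3 flox/flox mice carrying Alb-cre, labelled hepatocyte-specific knockout, and fasted and fed Cre-negative Foxo3 floxed mice, labelled control. Fasting was overnight, the fed mice ate freely, and floxed Foxo3 alleles are carried by all 4 groups. Alb-cre is a transgene in which the albumin promoter drives Cre recombinase in hepatocytes, so other liver cells keep Foxo3 by design.

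Autophagy encloses cytoplasm, damaged organelles or protein aggregates in a double membrane, the autophagosome, which then fuses with the lysosome, where acid hydrolases break the contents down. In liver it is known for supplying amino acids, lipids and glucose precursors during fasting, and nutrient loss activates it mainly through changes in phosphorylation of the ULK1 kinase complex. FOXO factors and the TFEB family of transcription factors are known activators of autophagy and lysosomal genes, and both move into the nucleus when insulin or mTORC1 signalling falls.

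TFEB is known to bind the CLEAR element, a palindrome built around the E-box CACGTG, and FOXO proteins bind forkhead sites such as GTAAACA. Promoter windows of 250 bases ending at the RefSeq start (build GRCm38.p6) were available for 30 of the 38 genes, in 35 windows. They were searched on both strands for CACGTG, TCACGTGA and GTAAACA. Each TCACGTGA also contains CACGTG. An E-box stood in 50.0% of the 12 lysosomal windows and in 17.4% of the other 23 windows, beside 6.02% of all 32851 windows of the table. The CLEAR-type TCACGTGA stood in 33.3% of the lysosomal windows and in 4.35% of the others, beside 0.785% of all windows. No member window held GTAAACA, which stood in 3.17% of all windows. At that share, 35 windows searched for 1 exact sequence are too few to show a lack of forkhead sites. These are matches of letters, with no measure of binding. The genes were chosen from knowledge of the pathway, so the shares are descriptions and not a test of enrichment. Shown first are 4 lysosomal promoters with E-boxes, and then 3 promoters of genes that were higher in fasted livers, all 5′ to 3′ on the gene's strand with matches in capitals.
Lamp1 promoter (chr8:13158911-13159160, plus strand): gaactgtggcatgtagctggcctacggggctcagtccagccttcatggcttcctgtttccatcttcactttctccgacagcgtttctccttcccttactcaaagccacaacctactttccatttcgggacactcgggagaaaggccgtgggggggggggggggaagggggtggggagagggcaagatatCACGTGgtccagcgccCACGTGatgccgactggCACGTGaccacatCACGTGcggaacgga
Mcoln1 promoter (chr8:3500269-3500518, plus strand): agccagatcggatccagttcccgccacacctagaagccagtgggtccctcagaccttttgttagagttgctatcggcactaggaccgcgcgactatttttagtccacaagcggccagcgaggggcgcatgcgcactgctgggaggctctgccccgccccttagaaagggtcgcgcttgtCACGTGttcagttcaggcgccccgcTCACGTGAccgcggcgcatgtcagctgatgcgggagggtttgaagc
Ctsd promoter (chr7:142387828-142388077, minus strand): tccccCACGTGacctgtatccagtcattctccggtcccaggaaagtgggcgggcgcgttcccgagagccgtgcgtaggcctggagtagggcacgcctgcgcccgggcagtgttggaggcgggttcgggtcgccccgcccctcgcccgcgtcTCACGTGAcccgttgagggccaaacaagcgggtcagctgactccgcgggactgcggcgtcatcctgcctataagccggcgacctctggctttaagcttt
Atp6v1a promoter (chr16:44139260-44139509, minus strand): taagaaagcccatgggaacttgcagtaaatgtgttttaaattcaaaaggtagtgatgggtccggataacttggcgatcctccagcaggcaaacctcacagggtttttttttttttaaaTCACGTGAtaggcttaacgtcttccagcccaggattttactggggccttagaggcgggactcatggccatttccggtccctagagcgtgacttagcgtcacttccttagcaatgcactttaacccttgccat
Map1lc3b promoter (chr8:121590188-121590437, plus strand): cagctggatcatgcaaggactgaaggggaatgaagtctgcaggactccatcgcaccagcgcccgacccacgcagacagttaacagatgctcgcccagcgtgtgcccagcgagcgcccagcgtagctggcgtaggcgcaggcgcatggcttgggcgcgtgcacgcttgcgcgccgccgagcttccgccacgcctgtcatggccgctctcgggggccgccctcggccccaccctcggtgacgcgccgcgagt
Bnip3 promoter (chr7:138909507-138909756, minus strand): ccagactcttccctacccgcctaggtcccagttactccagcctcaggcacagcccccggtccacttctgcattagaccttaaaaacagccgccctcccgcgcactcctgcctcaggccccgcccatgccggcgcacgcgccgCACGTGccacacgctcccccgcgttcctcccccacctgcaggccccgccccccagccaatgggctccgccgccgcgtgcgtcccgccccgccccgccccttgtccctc
Optn promoter (chr2:5064118-5064367, minus strand): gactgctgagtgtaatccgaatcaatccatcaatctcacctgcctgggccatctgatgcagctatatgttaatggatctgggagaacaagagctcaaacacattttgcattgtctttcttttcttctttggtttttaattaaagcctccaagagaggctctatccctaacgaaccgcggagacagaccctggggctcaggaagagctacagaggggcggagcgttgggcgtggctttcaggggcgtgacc
The Lamp1 window, on the plus strand, held 4 E-boxes that began 61, 45, 28 and 15 bases before the start. In Mcoln1, on the plus strand, E-boxes began 71 and 45 bases before the start, and the second lay within a CLEAR-type match. Ctsd, on the minus strand, held an E-box near the far end of its window and another within a CLEAR-type match 98 bases before the start. Atp6v1a, also on the minus strand, held 1 CLEAR-type match. These positions are relative to RefSeq starts. In the deposited annotation Atp6v1a extends to 44139705, so its whole window lies within the gene. Ctsd extends to 142388038, so most of its window does too, with the CLEAR-type match. The windows of Atg7, Ctsl and Atg14, not shown, also lie wholly within their genes. Those of Mcoln1, Map1lc3b and Bnip3 overlap their genes in part. Of the genes that were higher in fasted livers, Bnip3, on the minus strand, held 1 E-box that began 108 bases before the start. Map1lc3b, on the plus strand, and Optn, on the minus strand, held none of the 3 motifs. Map1lc3a and Atg16l1, also higher in fasted livers, had no window to search.

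Library totals ranged from 17520058 to 22414976 counts, and the lowest count of any of the 38 genes in any library was 122. For these genes the median counting error in 1 library was 2.62%, beside a median SD between replicates of 9.21%, so that spread between livers and not depth set the precision. Levels are CPM, counts relative to the library total, scaled by trimmed mean of M values (TMM) factors unless TPM, which is also scaled by gene length, is named. Tests are the quasi-likelihood F test of edgeR, 2-sided, with p-values adjusted by the Benjamini-Hochberg method over 15862 tested genes and a threshold of 0.05. The targeted gene, Foxo3, stood at 46.6, 53.6 and 53.4 CPM in fasted and 59.4, 58.8 and 62.2 CPM in fed livers labelled knockout, against 44.3, 39.9 and 38.1 CPM in fasted and 45.5, 44.5 and 50.4 CPM in fed control livers. It was thus not lower in the livers labelled knockout, which lay above every control of their feeding state. The averaged log2 difference, knockout minus control, was 0.34 (SE 0.066, adjusted p = 0.25 by edgeR), not past the threshold. Which exons the loxP sites flank is not stated in the labels, and reads of exons that stay in the allele still count for the gene. The Foxo3 level therefore does not check the genotype. Hepatocyte markers were abundant in all libraries, with summed levels of 10 markers between 80900 and 125000 TPM. Fed control replicate 3 stood apart from the rest, since 18.2% of all tested genes had their highest level there and markers of several cell types other than hepatocytes were higher in it. Results that turn on it are given with and without it.

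On the length-scaled TPM scale the 38 genes spanned a wide range. The highest mean level over the 12 livers was that of Lamp1, a heavily glycosylated lysosomal membrane protein, at 582 TPM. Gabarapl1 followed at 395 TPM, then the cysteine protease genes Ctsz and Ctsb at 318 and 296 TPM, and the cargo receptor gene Sqstm1 at 292 TPM. The lowest levels were those of the transcription factors Tfeb and Tfe3, at 3.59 and 5.76 TPM, and of the phagophore-binding Wipi1 and the conjugation gene Atg16l1, at 7.23 and 8.58 TPM. Lamp1 ranged from 514 to 774 TPM over the 12 livers, with its highest value in fed control replicate 3, and Gabarapl1 ranged from 313 to 495 TPM. The ranges of Ctsz, Ctsb and Sqstm1 overlapped widely, and so did those of Atg16l1 and Wipi1, so these neighbours in the order did not differ beyond their spread.

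Averaged over both genotypes, 5 of the 38 genes were higher in fasted than in fed livers and none was lower. They were Map1lc3a, Bnip3, Map1lc3b, Atg16l1 and Optn, with increases of 1.2 to 1.44-fold. This is 13.2% of the 38 genes, beside 9.07% of all tested genes that passed in either direction, 4.55% as higher and 4.52% as lower. All 5 belong to the 23 autophagy genes, and 0 of the 13 lysosomal genes passed the threshold. In the deposited annotation (build mm10) Map1lc3a (ENSMUSG00000027602) lies on chromosome 2 from 155276297 to 155278073, Map1lc3b (ENSMUSG00000031812) on chromosome 8 from 121590361 to 121598760 and Atg16l1 (ENSMUSG00000026289) on chromosome 1 from 87755870 to 87792428. Bnip3 (ENSMUSG00000078566) lies on chromosome 7 from 138890836 to 138909519 and Optn (ENSMUSG00000026672) on chromosome 2 from 5020642 to 5064051. At an unadjusted p of 0.05, 12 of the 38 genes passed, all among the autophagy genes, beside 23.6% of all tested genes.

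Initiation and nucleation genes start the phagophore, and none of the 6 passed the threshold. Ulk1, the nutrient-sensing kinase that starts the process, differed most within this group. It stood at 66.7, 90.5 and 92.6 CPM in fasted and 131, 129 and 115 CPM in fed livers labelled knockout, against 93.8, 98.7 and 102 CPM in fasted and 88.2, 127 and 87.9 CPM in fed control livers. The fasted and fed livers labelled knockout did not overlap, while those of controls did, with 1 fed control well above the other 2. The averaged log2 difference was -0.31 (SE 0.11, adjusted p = 0.096 by edgeR). Its paralog Ulk2 had an averaged log2 difference of -0.15, and the ULK1 partner Atg13 one of -0.07. Among the subunits of the class III PI3-kinase complex, which makes the lipid signal on the phagophore, Becn1 had -0.02, the catalytic Pik3c3 0.10 and the autophagy-specific Atg14 0.14. The adjusted p of these 5 lay between 0.31 and 0.91.

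Conjugation genes attach ATG12 to ATG5 and LC3 to phosphatidylethanolamine, and 1 of the 7 genes of this group passed. Atg16l1, which brings the ATG12-ATG5 conjugate to the membrane, stood at 35.2, 33.3 and 37.8 CPM in fasted and 27.9, 32.4 and 30.2 CPM in fed livers labelled knockout. In controls it stood at 37.8, 40.4 and 40.4 CPM in fasted and 31.4, 28.2 and 26.7 CPM in fed livers. Every fasted liver was above every fed liver of its genotype, although fasted livers labelled knockout lay below the fasted controls apart from a tie at the edge. The averaged log2 difference was 0.35 (SE 0.066, adjusted p = 0.0057 by edgeR). Atg12, the ubiquitin-like protein that is joined to ATG5, averaged 33.2 ± 1.98 CPM in fasted and 25.7 ± 3.04 CPM in fed livers labelled knockout, and 33.9 ± 0.901 CPM in fasted and 30.1 ± 5.04 CPM in fed controls (SD, n = 3 each), a log2 difference of 0.27 with an adjusted p of 0.07 by edgeR. In fed control replicate 3 it was at 35.7 CPM, the highest of the 12 livers, and without that library the log2 difference was 0.34 with an adjusted p of 0.013 by edgeR. The E1-like Atg7 had an averaged log2 difference of 0.20, the E2-like Atg3 0.12, Atg5 0.11 and the phosphoinositide-binding Wipi2 0.16, all positive and none past the threshold, while Wipi1 had -0.18.

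The LC3 and GABARAP proteins coat the autophagosome and hold cargo receptors, and 2 of the 5 genes passed, both of the LC3 branch. Map1lc3a, which encodes LC3A, stood at 38.7, 40.7 and 38.9 CPM in fasted and 25.3, 35.1 and 28 CPM in fed livers labelled knockout, against 50.9, 51.1 and 40.7 CPM in fasted and 35.6, 29.8 and 27.1 CPM in fed control livers. Fasted and fed livers did not overlap within either genotype, and the averaged log2 difference was 0.52 (SE 0.097, adjusted p = 0.0051 by edgeR), the largest among the 38 genes. Map1lc3b, which encodes LC3B, the usual marker of autophagosomes, stood at 105, 129 and 107 CPM in fasted and 106, 99.2 and 94.6 CPM in fed livers labelled knockout. Control livers had 129, 127 and 150 CPM when fasted and 92.3, 102 and 83.9 CPM when fed. The control groups did not overlap, while fasted replicate 1 labelled knockout lay within the range of its fed group. The averaged log2 difference was 0.36 (SE 0.082, adjusted p = 0.014 by edgeR).

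Within the GABARAP branch, Gabarapl1 had an averaged log2 difference of 0.28 (adjusted p = 0.11 by edgeR), Gabarapl2 one of 0.15 and Gabarap one of -0.05, and none passed. Gabarapl1 was the most abundant transcript of the family in every group. It made up 53.7 ± 3.08% of the family's summed TPM in fasted and 48.5 ± 2.26% in fed livers labelled knockout, and 50.7 ± 2.23% in fasted and 50.9 ± 0.89% in fed controls (SD, n = 3 each). Gabarap made up 27 ± 1.11% in fasted and 33.1 ± 3.38% in fed livers labelled knockout, and 26.3 ± 0.702% in fasted and 30.6 ± 0.882% in fed controls. The 2 LC3 genes together made up 14.5 ± 1.62% in fasted and 13.1 ± 1.15% in fed livers labelled knockout, and 17.5 ± 1.56% in fasted and 13.2 ± 0.162% in fed controls. The share of Gabarap was smaller in every fasted liver than in any fed liver of its genotype, and the LC3 share was larger in every fasted control than in any fed control but overlapped in livers labelled knockout. Shares within the family were not tested.

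Cargo receptors tie material to LC3, and 2 of 5 passed. Bnip3, a receptor on the outer mitochondrial membrane that is induced by low oxygen, stood at 235, 241 and 271 CPM in fasted and 190, 200 and 177 CPM in fed livers labelled knockout. In controls it stood at 244, 310 and 286 CPM in fasted and 215, 226 and 156 CPM in fed livers, with no overlap in either genotype. The averaged log2 difference was 0.45 (SE 0.1, adjusted p = 0.015 by edgeR). Optn, a ubiquitin-binding receptor for mitochondria and bacteria, stood at 126, 121 and 113 CPM in fasted and 87.9, 89.9 and 88.9 CPM in fed livers labelled knockout, against 101, 110 and 125 CPM in fasted and 107, 101 and 104 CPM in fed controls. The groups labelled knockout lay wide apart and those of controls overlapped. The averaged log2 difference was 0.27 (SE 0.067, adjusted p = 0.025 by edgeR). That call was the least stable of the 5, since it held in 10 of 20 alternative fits, whereas Map1lc3a and Bnip3 passed in all 20 and Atg16l1 and Map1lc3b in 19. Sqstm1, which encodes p62, had a log2 difference of 0.23 (adjusted p = 0.16 by edgeR), Nbr1 one of 0.09 and the Bnip3 paralog Bnip3l one of 0.09. Without fed control replicate 3, where Sqstm1 was at 449 CPM against 349 and 343 CPM in the other fed controls, Sqstm1 had a log2 difference of 0.30 and an adjusted p of 0.045 by edgeR.

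**Figure D1:**
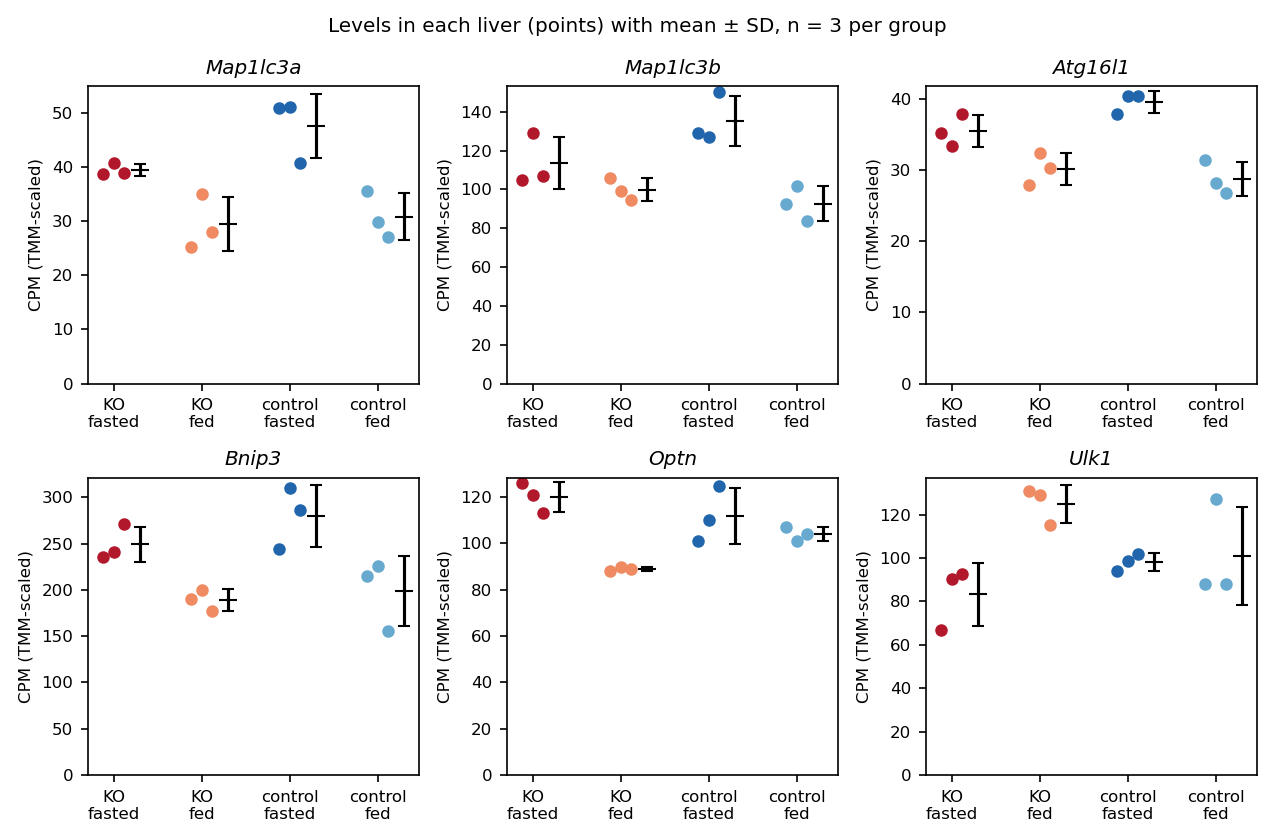
Levels of the 5 genes that were higher in fasted livers and of Ulk1, in TMM-scaled CPM on linear axes from 0, with a point for each liver and the mean ± SD (n = 3) beside it. Map1lc3a, Atg16l1 and Bnip3 are higher in every fasted liver than in any fed liver of the same genotype, Map1lc3b separates in controls only, and Optn and Ulk1 separate in livers labelled knockout only.

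Several of these genes share bases with a gene on the opposite strand. Libraries were strand-specific per the labels, but the strand setting used in counting is not given in the sources used here, so reads of a gene and of its antisense partner cannot be told apart. Bnip3 overlaps Gm45507, with a mean of 2340 counts against 4660 for Bnip3, and Gm45507 itself had an averaged fasting difference of 0.40 (adjusted p = 0.027 by edgeR). For Optn the partner 4930551O13Rik had 196 counts against 2170, with a difference of 0.31, and for Gabarapl1 the partner 1700101I11Rik had 1510 counts against 6530, with a difference of 0.31. Map1lc3b overlaps Zcchc14, which had 926 counts against 2250 and a difference in the other direction, -0.27. Map1lc3a had no overlapping gene in the annotation, and the genes overlapping Atg16l1 had a mean of under 1 count. Lysosomal genes have such partners too. Ctsb overlaps Fdft1, with 2600 counts against 14600 and a difference of -0.41 (adjusted p = 0.15 by edgeR). Ctsa overlaps Pltp, with 3360 counts against 4270 and a difference of -0.44 (adjusted p = 0.53 by edgeR). The partners of Lamp1, Ctsz and Hexa had differences of -0.04, 0.04 and 0.10.

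Neither transcription factor gene passed the threshold. Tfeb had an averaged log2 difference of 0.09 and Tfe3 one of -0.08, with adjusted p of 0.74 and 0.64 by edgeR. TFEB and TFE3 are known to be controlled mainly by phosphorylation and location, which transcript counts do not measure.

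Of the 13 lysosomal genes, 2 had a positive and 11 a negative averaged fasting difference, with a median of -0.069 and a range of -0.172 to 0.067, beside a median of -0.009 over all tested genes. The autophagy genes had 17 positive and 6 negative differences with a median of 0.145. Among membrane proteins, Lamp1 had -0.03, Lamp2, which is needed for fusion and for chaperone-mediated autophagy, 0.07, and the calcium channel gene Mcoln1 -0.13. Among hydrolases, the cysteine protease gene Ctsb had the lowest value, -0.17, and the others lay between -0.08 and 0.00: the carboxypeptidase genes Ctsa and Ctsz, the aspartic protease gene Ctsd, Ctsl, the hexosaminidase subunit gene Hexa and the acid lipase gene Lipa. The proton pump genes Atp6v0d1, Atp6v1a and Atp6v1h, whose products acidify the lysosome, lay between -0.07 and 0.00. The adjusted p of these 13 genes was between 0.34 and 1 by edgeR.

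**Figure D2:**
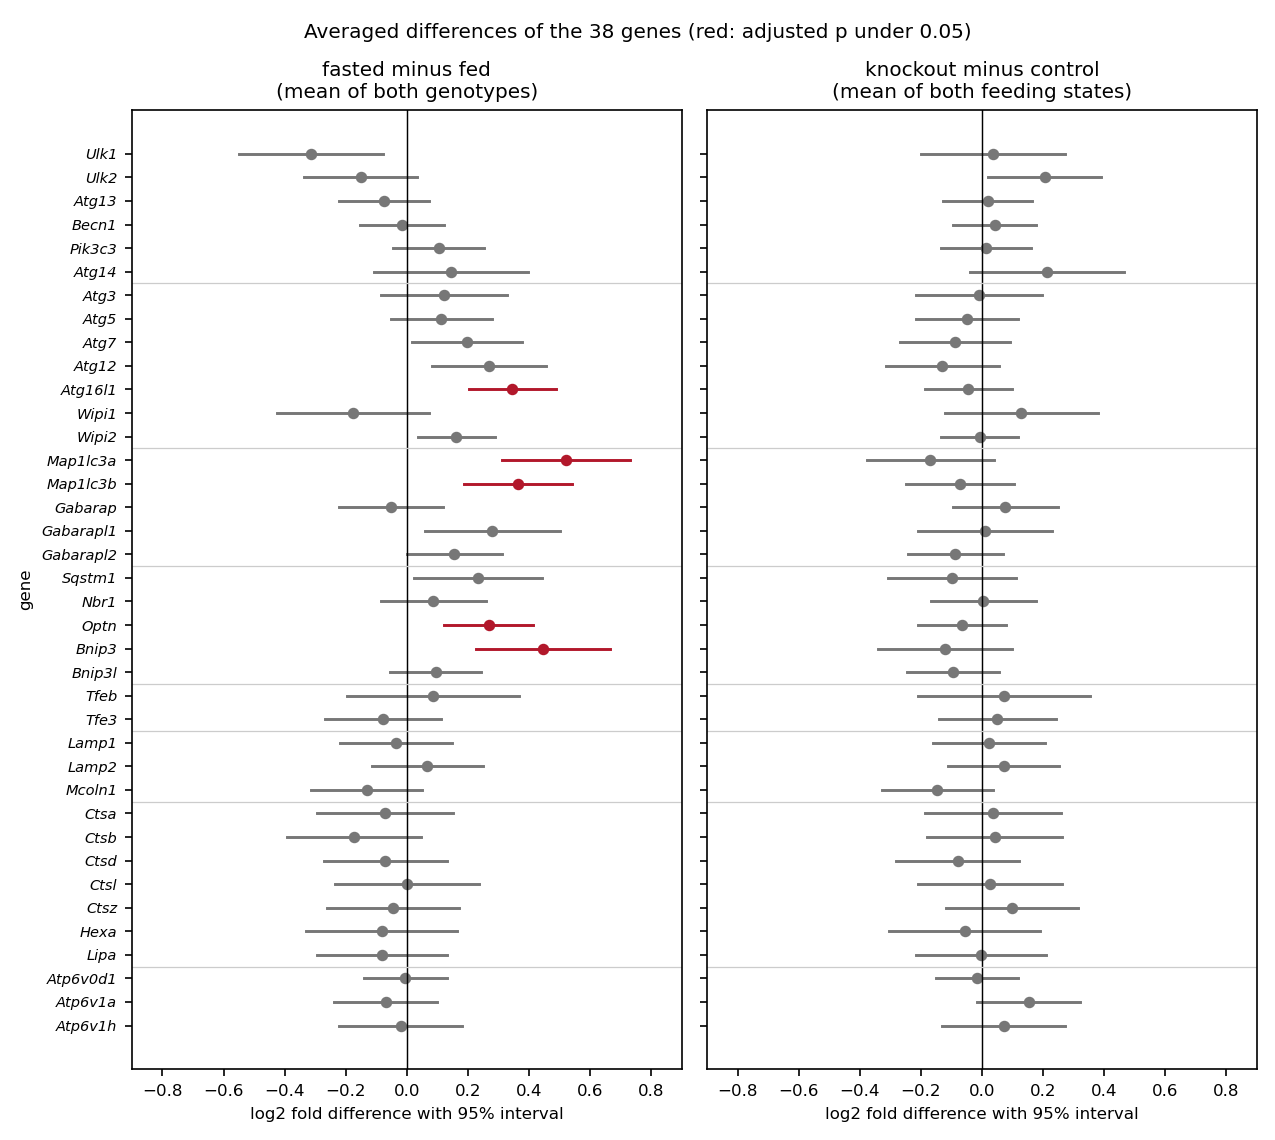
Averaged log2 differences of the 38 genes with 95% intervals, fasted minus fed on the left and knockout minus control on the right, ordered by role with lines between roles. The 5 genes that pass an adjusted p of 0.05 for fasting, in red, all lie among the autophagy genes, and none passes for genotype.

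Fed control replicate 3 stood apart for the lysosomal genes too. It held the highest level of the 12 livers for 6 of the 13 lysosomal genes, namely Lamp1, Ctsb, Ctsd, Hexa, Lipa and Atp6v1a, beside the 18.2% of all tested genes. Ctsb was at 954 CPM in that liver, against 726 and 661 CPM in the other fed controls. Ctsd was at 235 CPM against 171 and 166 CPM, and Hexa at 85.4 CPM against 56 and 55 CPM. Relative to the mean of the other 2 fed controls, 10 of the 13 lysosomal genes were higher there, with a median log2 difference of 0.22, while 6 of the 23 autophagy genes were higher, with a median of -0.183. Tfeb was at 5.54 CPM in this liver, the lowest of the 12.

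Markers of several cell types other than hepatocytes moved with that library, among them macrophages, cells rich in lysosomes. All 11 Kupffer cell and all 11 infiltrating macrophage markers were detected. Of the Kupffer cell markers 9 were above the mean of the other 2 fed controls, with a median log2 difference of 0.853, as were 11 of 11 infiltrating macrophage markers with a median of 2.097, while 1 of 10 hepatocyte markers was above it, with a median of -0.5. Summed Kupffer markers reached 1160 TPM there and ranged from 481 to 628 TPM in fasted and from 504 to 932 TPM in fed livers labelled knockout, and from 462 to 1210 TPM in fasted and from 486 to 1160 TPM in fed controls. Summed infiltrating macrophage markers ranged from 174 to 213 TPM and from 202 to 334 TPM in fasted and fed livers labelled knockout, and from 167 to 392 TPM and from 190 to 508 TPM in fasted and fed controls. Summed TPM carries no TMM factor, and fed control replicate 3 had the largest factor, 1.123 against 0.923 to 1.059 elsewhere. Its TPM values thus stood higher relative to its CPM than in other livers. Counts of markers above the other fed controls, and their log2 differences, are on the CPM scale. Other sums were also at their highest in fed control replicate 3. The 9 stellate cell markers reached 297 TPM there against 62.5 to 143 TPM in the other livers, with 9 of 9 above the other fed controls. The 7 endothelial markers reached 195 TPM against at most 147 TPM. By CPM, 7 of 7 were above the other fed controls, with a median log2 difference of 0.317. The T and NK cell markers reached 28.7 TPM against at most 17.8 TPM. The cholangiocyte markers, which share Spp1 with the infiltrating macrophage list, reached 239 TPM against at most 77.5 TPM. No other cholangiocyte marker exceeded 5.45 TPM in any liver, and Spp1 alone reached 232 TPM in fed control replicate 3. B and plasma cell markers were at 14.9 TPM there and highest, at 220 TPM, in fasted control replicate 3. The highest Kupffer sum, 1210 TPM, belonged to fasted control replicate 1, whose mean centred log2 level over the 13 lysosomal genes was -0.03, against 0.173 in fed control replicate 3. The lowest lysosomal mean, -0.159, was in fasted control replicate 3, with 790 TPM of Kupffer markers. The part of any of these cell types in the lysosomal levels was not tested, and in bulk liver more cells of a type and more RNA per cell cannot be told apart.

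**Figure D3:**
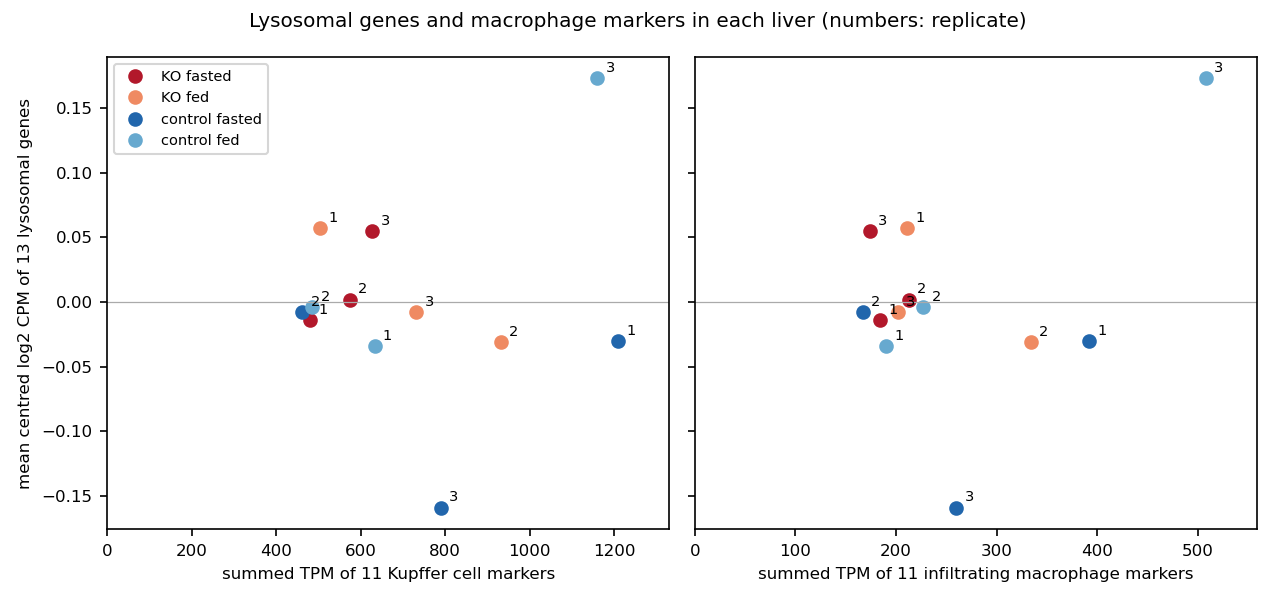
Mean log2 CPM of the 13 lysosomal genes, each centred on its mean over the 12 livers, against summed TPM of 11 Kupffer cell markers on the left and of 11 infiltrating macrophage markers on the right, 1 point per liver with its replicate number. Fed control replicate 3 is at 0.173 with 1160 and 508 TPM, while fasted control replicate 1 is at -0.03 with 1210 and 392 TPM.

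Without fed control replicate 3 the averaged fasting difference of the lysosomal genes had a median of -0.011, with 6 of 13 positive, and again 0 passed. That of the autophagy genes had a median of 0.11, against 0.145 with that library, and 17 of 23 were again positive. The same fit called 7 of the 38 genes as higher, the 5 above and Atg12 and Sqstm1, beside 8.81% of all tested genes in either direction.

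Fasting was also compared within each genotype. In controls, 3 of the 38 genes were higher in fasted livers and none lower, or 7.89%, beside 4.14% of all tested genes in either direction, 2.05% as higher and 2.09% as lower. Map1lc3a had a log2 difference of 0.62 (SE 0.14, adjusted p = 0.023 by edgeR), Map1lc3b one of 0.54 (SE 0.12, adjusted p = 0.02) and Atg16l1 one of 0.46 (SE 0.093, adjusted p = 0.016). Bnip3 had 0.49 with an adjusted p of 0.075. The count was 1 without fasted control replicate 2 or 3 and without fed control replicate 2 or 3, and 0 when control livers were fitted alone. The differences themselves changed little when 1 library was left out, with log2 values of 0.54 to 0.74 for Map1lc3a, 0.46 to 0.62 for Map1lc3b and 0.40 to 0.53 for Atg16l1. Without fed control replicate 3 the remaining call was Atg16l1, at 0.40 with an adjusted p of 0.049 by edgeR.

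In livers labelled knockout, Optn was the 1 gene that passed, higher in fasted livers by 0.43 on the log2 scale (SE 0.095, adjusted p = 0.033 by edgeR), beside 2.48% of all tested genes in either direction, 1.36% as higher and 1.12% as lower. Ulk1 had -0.59 (SE 0.15, adjusted p = 0.069 by edgeR), a 1.5-fold lower level, followed by Map1lc3a at 0.42, Bnip3 at 0.40, Atg7 at 0.38, Atg12 at 0.37 and Gabarapl1 at 0.36, with adjusted p from 0.14 to 0.26. The Optn call ended without any 1 of the 6 libraries labelled knockout, with adjusted p from 0.06 to 0.14 by edgeR, although its log2 difference stayed between 0.40 and 0.47. It also ended in limma fits of the TPM values, where the count was 0. Without fed control replicate 2 or 3, and by DESeq2, Ulk1 passed as well, as lower in fasted livers, with adjusted p of 0.03, 0.046 and 0.02.

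Fasted and fed livers did not overlap, with the fasted ones higher, for 4 of the 38 genes in controls and for 11 in livers labelled knockout, or 10.5% and 28.9%. Over all tested genes this held for 11.5% in each genotype. In livers labelled knockout the 11 were Pik3c3, Atg7, Atg12, Atg16l1, Wipi2, Map1lc3a, Gabarapl1, Sqstm1, Optn, Bnip3 and Lipa, and Ulk1 and Ctsl had their fasted livers below the fed ones, or 5.26% beside 11.8% of all tested genes. With both genotypes pooled, Atg16l1, Map1lc3a and Bnip3 were higher in every fasted liver than in any fed liver. These are 7.89% of the members, beside 2.59% of all tested genes by the same pooled rule. No member was lower in every fasted liver than in any fed liver, beside 2.34% of all tested genes.

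The direction of the fasting difference was shared between genotypes by 22 of 23 autophagy genes and by 4 of 13 lysosomal genes, beside 64.4% of all tested genes. The differences of the 2 genotypes share no library, and across genes their Pearson correlation was 0.58 for the 23 autophagy genes, -0.68 for the 13 lysosomal genes and 0.35 for all tested genes. Genes are not independent replicates, since those of 1 liver share its library and cell makeup, so these values describe the livers and carry no test. Without fed control replicate 3 the direction was shared by 19 of 23 autophagy and 5 of 13 lysosomal genes, beside 60.6% of all tested genes, and the correlations were 0.63 and -0.59.

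**Figure D4:**
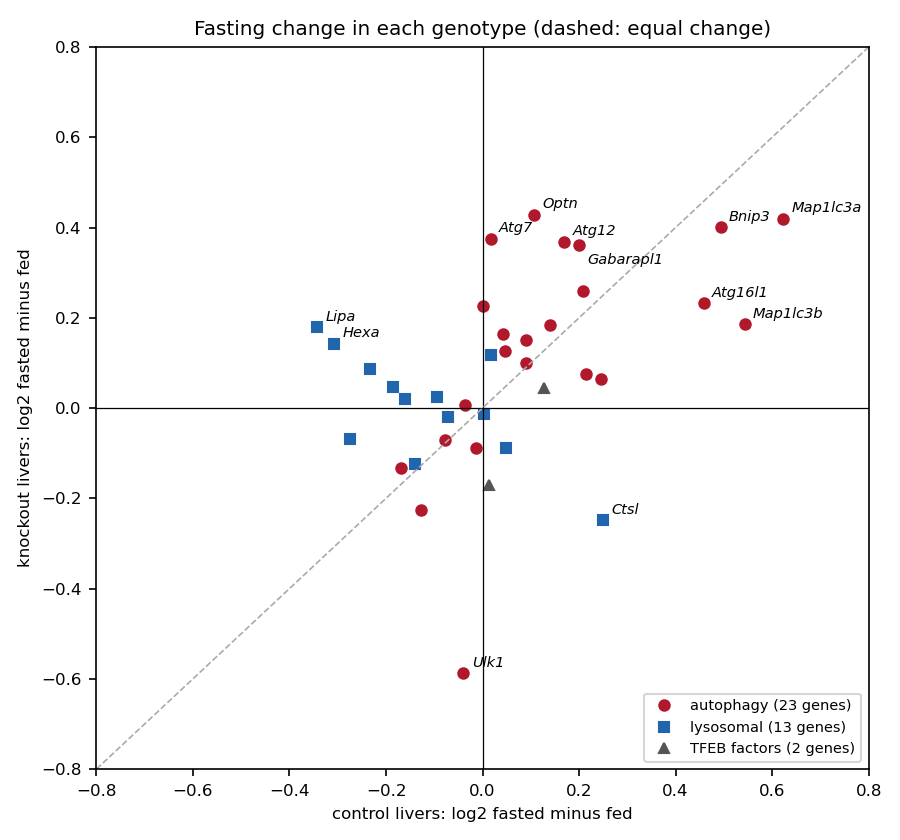
Log2 difference of fasted minus fed livers in controls on the horizontal axis and in livers labelled knockout on the vertical axis for the 38 genes, with a dashed line of equal change. Most autophagy genes lie in the upper right, with Map1lc3a at 0.62 and 0.42, Ulk1 is at -0.04 and -0.59, and the lysosomal genes Lipa and Hexa lie at upper left.

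The largest genotype gaps in the fasting response were at Ulk1, Lipa and Ctsl. Lipa, the acid lipase that frees cholesterol and fatty acids in the lysosome, stood at 301, 302 and 316 CPM in fasted and 244, 290 and 278 CPM in fed livers labelled knockout, against 278, 276 and 215 CPM in fasted and 326, 273 and 376 CPM in fed controls. Its interaction, the knockout fasting difference minus the control one, was 0.52 on the log2 scale (SE 0.2, adjusted p = 0.63 by edgeR). The highest Lipa level, 376 CPM, was in fed control replicate 3. When each library was left out in turn, the Lipa interaction lay between 0.41 and 0.63 and never passed. Ctsl, a cysteine protease gene, stood at 468, 438 and 469 CPM in fasted and 672, 474 and 487 CPM in fed livers labelled knockout, against 507, 540 and 558 CPM in fasted and 377, 518 and 454 CPM in fed controls, with an interaction of -0.50 (SE 0.22, adjusted p = 0.68 by edgeR). Without fed replicate 1 labelled knockout, its highest liver, the Ctsl interaction was -0.32. For Ulk1 the interaction was -0.55 (SE 0.22, adjusted p = 0.64 by edgeR), for Map1lc3b -0.36 and for Optn 0.32. None of the 38 genes passed, beside 0.0063% of all tested genes, and 5 had an unadjusted p under 0.05, beside 7.19% of all tested genes. DESeq2 also called 0. The 95% intervals of 24 of the 38 interactions lay within 1.5-fold either way, so differences in response above that size are not bounded for the other 14.

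The comparison of livers labelled knockout with controls asks whether the hepatocyte Foxo3 alleles bear on these genes. It uses the same control livers as the fasting comparison in controls, so the values of both are not independent. No member passed in fed livers, in fasted livers or on average over both, beside 0%, 0.0315% and 0.0126% of all tested genes. DESeq2 called 0 members in each of these comparisons too, although in fed livers it gave an adjusted p to 27 of the 38 genes and the others could not be called. At an unadjusted p of 0.05 the edgeR counts were 2, 2 and 1 of 38, beside 6.12%, 9.01% and 7.91% of all tested genes. The averaged difference ranged from -0.169 for Map1lc3a to 0.213 for Atg14, with a median of 0.006, beside -0.014 over all tested genes. Its 95% interval lay within 1.5-fold either way for all 38 genes, with a median half-width of 0.185 on the log2 scale. In fasted livers this also held for all 38 genes and in fed livers for 34.

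The gene under an unadjusted p of 0.05 on average was Ulk2, with 74.9 ± 6.23 CPM in fasted livers labelled knockout against 64.1 ± 3.86 CPM in fasted controls, and 82.1 ± 4.37 CPM in fed livers labelled knockout against 72.1 ± 12.3 CPM in fed controls (SD, n = 3 each). Its averaged log2 difference was 0.21 (SE 0.086, adjusted p = 0.61 by edgeR). In fasted livers the proton pump subunit gene Atp6v1a stood at 65.7, 61.6 and 70.8 CPM in livers labelled knockout against 51.7, 58.5 and 54.1 CPM in controls, without overlap, a log2 difference of 0.27 (SE 0.11, adjusted p = 0.53 by edgeR). Map1lc3b in fasted livers had -0.25 (adjusted p = 0.55) and Map1lc3a -0.27 (adjusted p = 0.58). In fed livers Atg7 and Optn were both below the controls without overlap, with log2 differences of -0.27 and -0.23 and an adjusted p of 0.81 each by edgeR. Groups that did not overlap were found for 2 genes higher and 4 lower in fasted livers, or 5.26% and 10.5% beside 6.82% and 7.2% of all tested genes, and for 2 higher and 2 lower in fed livers, or 5.26% each beside 6.3% and 5.99%. No member separated in the same direction in both feeding states. With feeding states pooled, no member had all livers labelled knockout above, or all below, every control liver. By that pooled rule 0.208% of all tested genes were higher and 0.126% lower.

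**Figure D5:**
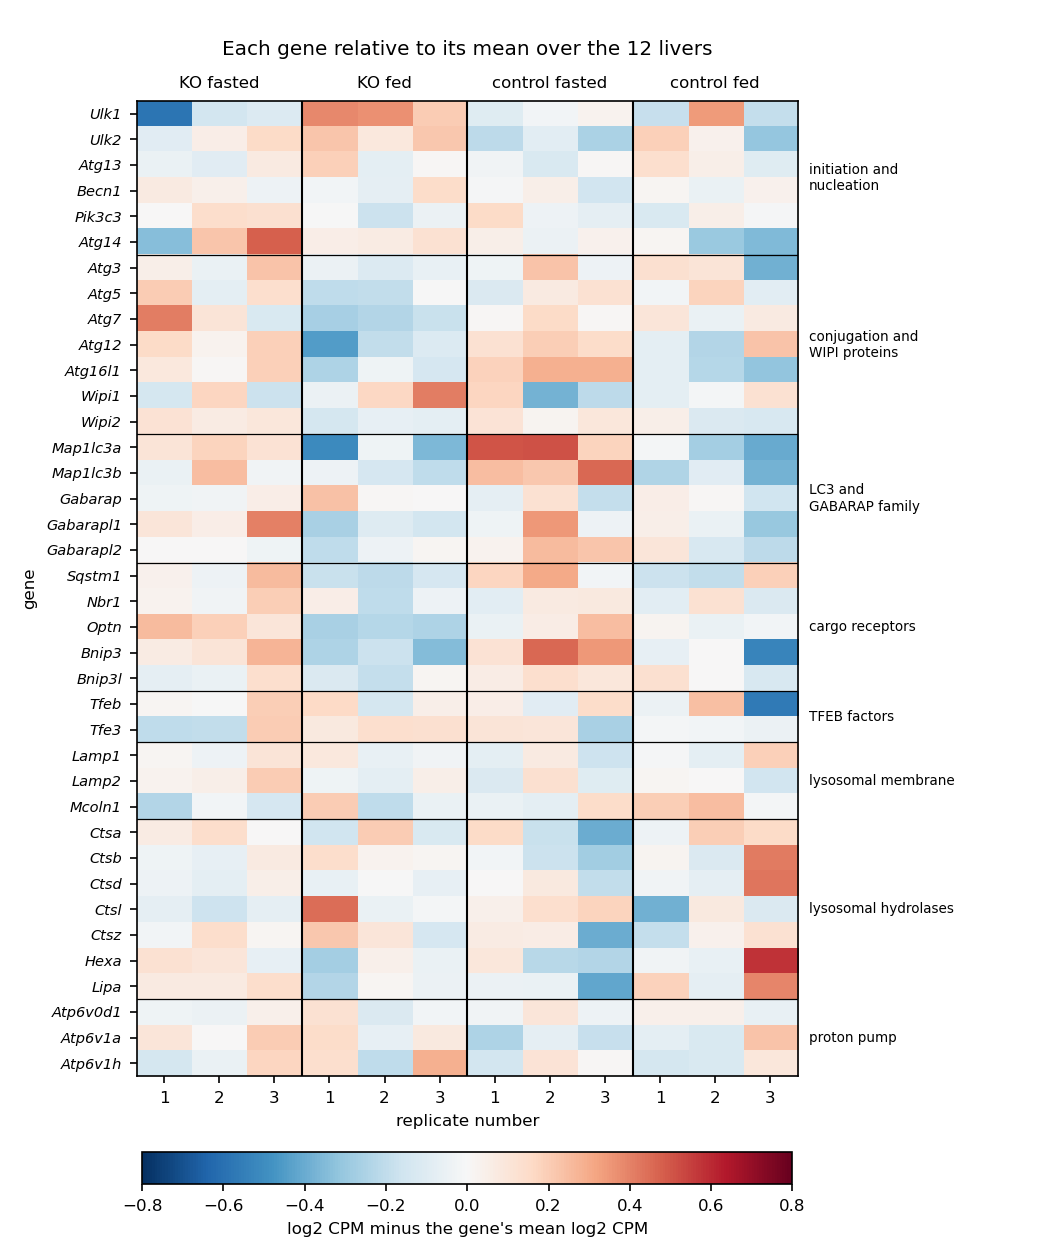
Log2 CPM of each of the 38 genes minus its mean over the 12 livers, with genes in rows by role and livers in columns by group and replicate; red is above and blue below the mean. The LC3 genes, Atg16l1 and Bnip3 are redder in fasted livers, and fed control replicate 3 stands out for Ctsb, Ctsd, Hexa and Lipa.

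A wider list of 126 other genes of the same pathway, of which 124 were tested, was read in the same comparisons. Averaged over both genotypes, 5 of the 124 were higher and 7 lower in fasted livers, or 9.68% beside 9.07% of all tested genes. By role, 2 of 11 other cargo receptors were higher and none lower, 2 of 32 other hydrolases were higher and 2 lower, and 0 of 13 fusion genes changed. Tex264, a receptor for autophagy of the endoplasmic reticulum, stood at 73.3, 70.3 and 79 CPM in fasted and 55.2, 55.4 and 53.8 CPM in fed livers labelled knockout, against 78.3, 95.9 and 75.9 CPM in fasted and 63.2, 60.7 and 65.4 CPM in fed controls. Fasted and fed livers were apart in both genotypes, with a log2 difference of 0.42 (SE 0.07, adjusted p = 0.0027 by edgeR). The hydrolase gene Ctsf, cathepsin F, also rose, by 0.45 (SE 0.09, adjusted p = 0.0077 by edgeR).

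Gm2a, the activator that presents GM2 ganglioside to hexosaminidase A, of which Hexa encodes a subunit, stood at 73.7, 68 and 85.2 CPM in fasted and 161, 119 and 121 CPM in fed livers labelled knockout, against 76.8, 76.3 and 67 CPM in fasted and 109, 141 and 96.3 CPM in fed controls. It was lower in every fasted liver than in any fed liver, with an averaged log2 difference of -0.74 (SE 0.11, adjusted p = 0.0013 by edgeR), and it passed in each genotype. Hexa itself, in the same comparison, had -0.08 (adjusted p = 0.71). Also lower were Glb1, the lysosomal beta-galactosidase, at -0.41 (SE 0.08, adjusted p = 0.0064), Atp6v1g1, a proton pump subunit gene, at -0.45 (SE 0.092, adjusted p = 0.0089), and Atg16l2, a paralog of Atg16l1, at -0.83 (SE 0.16, adjusted p = 0.0069), all by edgeR. Atg16l2 averaged 6.23 ± 0.473 CPM in fasted and 11.8 ± 2.23 CPM in fed livers labelled knockout, and 7.25 ± 1.38 CPM in fasted and 12.2 ± 4.24 CPM in fed controls (SD, n = 3 each), the direction opposite to that of Atg16l1. The other 6 that passed, named after their values were seen, were Gaa, Phb2 and Zkscan3 as higher and Asah1, Fnip2 and Tmem41b as lower, with log2 differences from -0.45 to 0.45.

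Between genotypes none of the 124 genes passed in any comparison. The 4 with the smallest p on average were Igf2r, the receptor that delivers hydrolases to lysosomes, at 0.26, Pik3r4, a subunit of the class III PI3-kinase complex, at 0.28, the fusion gene Epg5 at 0.16 and Tex264 at -0.19, with adjusted p from 0.54 to 0.60 by edgeR.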

How the data were processed

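Per the labels, poly(A) RNA of frozen liver was made into strand-specific libraries, and replicates are separate samples of a group. The authors deposited 2 tables over the same Ensembl genes, with a column per library: unnormalized counts, and TPM. Per the submitters' processing notes, the build was mm10 and the tools were featureCounts 1.6.3, HISAT2 2.1.0, DESeq2 1.24.0, Trimmomatic 0.38 and bcl2fastq 2.19. No strand setting or annotation release is named in the sources used here.

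Counts were fitted with edgeR 4.0.16 in R 4.3.3, with TMM factors, filterByExpr by group, robust quasi-likelihood, 1 fit of 12 libraries with a mean per group, and 7 contrasts. The filter left 15862 of 55487 genes. Alternatives were DESeq2 1.42.0, limma 3.58.1 on log2(TPM + 1) and log2(TPM + 0.1), other factors and filters, a replicate block, fits of the compared groups alone and leaving out each library. The code was tested on simulated counts. The 38 genes and all lists were chosen with earlier results of these data known. All 38 may be named; of the wider list, the 6 genes with the smallest p for averaged fasting and the 4 with the smallest p for averaged genotype are named by rule, and the other 6 that passed for averaged fasting were named after their values were seen. Same-numbered livers did not deviate together, so numbers were not used as pairs.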

Additional observations from a re-analysis of the deposited data

How the results depend on the processing

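The averaged fasting count, 5 members, was 2 with limma on log2(TPM + 1) without a filter and 4 to 7 when each library was left out in turn. In controls alone the count of 3 was 1 with limma without a filter, 0 in a fit of the compared groups alone, and 1 to 3 when each library was left out. In livers labelled knockout the count of 1 was 2 without a filter on low counts, by DESeq2 and in a fit of the compared groups alone, 0 in all 3 limma fits and with the replicate block, and 0 to 2 when each library was left out. Fits with fewer libraries have fewer degrees of freedom; the cause of the other shifts was not tested. Genotype and interaction counts stayed at 0 members in every fit run, with 27 members given an adjusted p by DESeq2 for genotype in fed livers.

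Replicate numbers are shared across groups, but of 18 same-numbered pairs 3 had a correlation of deviations over 0.1 (range -0.32 to 0.16), so the livers share only a number. With the replicate block the averaged fasting count was 4, with Optn at an adjusted p of 0.056 by edgeR, the control count stayed at 3 and Optn in livers labelled knockout had an adjusted p of 0.075.

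Over single genes, 1112 alternative values kept direction and side of the threshold, 99 lost and 21 gained a call, and none turned direction among called genes. The median of all genes shifted by at most 0.04 on the log2 scale under another scaling, filter, tool or design. With 3 livers per group, spread between livers limits precision more than depth.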
